A study of Mus musculus with 6 samples.

Results

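Janus kinases (JAKs), signal transducers and activators of transcription (STATs) and interferon regulatory factors (IRFs) were described through 10 genes, Ifngr1, Jak2, Stat3, Irf1, Irf2, Irf5, Irf8, Socs1, Socs3 and Cish, out of 24062 in the count tables. The genes were found by symbol, and all 10 had at least 10 counts in every library, so none was lost to a filter. RNA was sequenced from RAW264.7 cells, an established mouse macrophage line whose tissue is given as bone marrow in the labels. Each of the 6 conditions had 1 library, made from RNA pooled from 5 wells, so the data carry no spread between cultures and a difference between 2 libraries has no replicate check.

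M0 cells were not polarized. M1 cells received LPS at 100 ng/mL with IFN-γ at 20 ng/mL for 24 h, and M2 cells received IL-4 at 20 ng/mL for 24 h. These are the doses in the labels, and another passage of the study's text gives other cytokine doses. RM0, RM1 and RM2 cells were the same states given 10 Gy of gamma rays from a cesium source after polarization and kept for another 24 h. Whether the non-irradiated cells were kept for that additional time, and whether LPS and the cytokines stayed in the medium, is not given in the sources used here. Irradiation and time in culture after polarization therefore cannot be told apart.

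Library totals were 17894937 to 18870516 counts. Levels are given as CPM, counts relative to library size, after TMM scaling with edgeR, which allows for a few genes taking up much of a library, and the TMM factors were 0.8004 for M1, 0.8836 for RM1 and 1.05 to 1.134 for the other 4 libraries. All 10 macrophage markers were detected and summed to 331104 counts in M1 and 433048 in RM1 against 532490 to 736090 in the other libraries, while the 7 lymphocyte markers summed to 1 to 5 counts per library. The 6 fibroblast markers summed to 645 counts in M1 and 764 in RM1 against 128 to 199 in the other libraries, nearly all from Dcn, with Col1a2 and Col3a1 at 0. The 5 neutrophil markers found summed to 32511 and 51280 counts in M1 and RM1 against 2925 to 6738, nearly all from S100a8, with Elane at 0 or 1. These sums are counts before TMM scaling. The lower TMM factors of M1 and RM1 narrow the gap of the macrophage markers and widen those of the fibroblast and neutrophil markers. The counts of these lists moved with LPS plus IFN-γ, as several of the genes below did, and their part in those results was not tested. In bulk RNA, fewer cells of a type and less RNA per cell cannot be told apart.

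Interferon-γ binds a receptor made of the IFNGR1 and IFNGR2 chains, and the kinases JAK1 and JAK2 on it relay the signal to the nucleus, where IRF1, IRF8 and other genes are switched on. IL-4 acts in macrophages through the IL-4 receptor and STAT6, and IL-6 and IL-10 act through STAT3. SOCS1, SOCS3 and CISH are made in response to cytokines and dampen the signal of cytokine receptors, while IRF5 is known for its place downstream of Toll-like receptors and IRF2 for opposing IRF1.

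The windows of 250 bases before the RefSeq start (GRCm38.p6) were read for the 3 genes that were high in M1 and much lower in RM1, Irf1, Irf8 and Socs1, and for Jak2 and Stat3, which were high in both. Capitals mark matches to the interferon-γ activated site TTCNNNGAA (GAS) or to the core of the interferon-stimulated response element (ISRE), written as GAAA, any 2 bases and GAAA, searched on both strands. None of these 5 windows overlaps an annotated exon, whereas those of Irf2, Socs3 and Cish do by 34, 77 and 250 bases and are not shown.
Irf1, chr11:53769764-53770013, plus strand: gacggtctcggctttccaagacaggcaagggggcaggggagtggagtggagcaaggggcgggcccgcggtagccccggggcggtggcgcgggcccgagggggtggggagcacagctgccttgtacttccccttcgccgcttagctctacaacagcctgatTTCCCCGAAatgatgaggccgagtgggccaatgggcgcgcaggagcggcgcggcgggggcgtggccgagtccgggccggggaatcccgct
Irf8, chr8:120736108-120736357, plus strand: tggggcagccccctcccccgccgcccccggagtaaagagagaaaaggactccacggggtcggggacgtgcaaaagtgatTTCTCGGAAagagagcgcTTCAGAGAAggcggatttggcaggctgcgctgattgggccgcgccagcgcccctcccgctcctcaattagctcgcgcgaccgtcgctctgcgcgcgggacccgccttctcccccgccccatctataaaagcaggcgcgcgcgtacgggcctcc
Socs1, chr16:10785537-10785786, minus strand: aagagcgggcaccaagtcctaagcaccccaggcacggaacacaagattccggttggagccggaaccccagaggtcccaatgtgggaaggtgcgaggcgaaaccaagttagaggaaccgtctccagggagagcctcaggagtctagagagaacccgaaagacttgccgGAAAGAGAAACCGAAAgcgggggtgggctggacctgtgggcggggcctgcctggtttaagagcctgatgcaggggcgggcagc
Jak2, chr19:29251553-29251802, plus strand: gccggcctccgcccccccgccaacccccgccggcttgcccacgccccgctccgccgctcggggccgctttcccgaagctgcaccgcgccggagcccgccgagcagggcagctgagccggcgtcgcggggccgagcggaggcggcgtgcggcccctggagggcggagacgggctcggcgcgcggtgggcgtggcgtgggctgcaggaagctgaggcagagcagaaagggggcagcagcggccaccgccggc
Stat3, chr11:100939541-100939790, minus strand: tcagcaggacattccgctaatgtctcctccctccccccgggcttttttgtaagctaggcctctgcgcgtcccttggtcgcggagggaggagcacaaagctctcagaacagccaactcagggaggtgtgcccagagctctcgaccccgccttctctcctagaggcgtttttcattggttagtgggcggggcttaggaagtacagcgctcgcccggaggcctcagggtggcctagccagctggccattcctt

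The Irf1 window held 1 GAS, TTCCCCGAA, from 90 to 82 bases before the start. The Irf8 window held a GAS at 171 to 163 and another at 153 to 145 bases before the start. The Socs1 window held 2 ISRE cores at 83 to 74 and 77 to 68 bases before the start, which overlap each other. The Jak2 and Stat3 windows held neither motif. Among the other members, the Irf2 window held 1 GAS and 1 ISRE core and the Socs3 window 1 GAS, while those of Irf5, Cish and Ifngr1 held none, and a STAT6-type motif, TTC, any 4 bases and GAA, was in no member window. Of 32851 RefSeq promoter windows of the same length, 7.02% held a GAS, 5.85% the STAT6-type motif and 2.98% an ISRE core. A match to these letters is a description of the sequence and not a binding site, and none of the libraries measured binding.

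Per kilobase (kb) of exon inside the coordinates listed in the tables, Socs3 was the highest of the 10 genes in all 6 libraries, at 252 CPM per kb in M0 and 871 in RM1. In M0 it was followed by Irf5 at 54.2 and Stat3 at 49.9, and the lowest were Cish at 2.26 and Socs1 at 0.744. Irf1 was the 8th of 10 in M0 at 10.1 CPM per kb, the 2nd in M1 at 279 and the 4th in RM1 at 49.0. Irf8 was at 26.6 CPM per kb in M0, at 149 in M1 and at 43.5 in RM1. In M2, RM0 and RM2 each gene stood within 1 place of its rank in M0. The exon inside the listed coordinates is 1219 of 2785 transcript bases for Socs1 and 2161 of 2850 for Cish, so the levels per kb of these 2 genes and their ranks in M1 and RM2 depend on the length used.

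**Figure D1:**
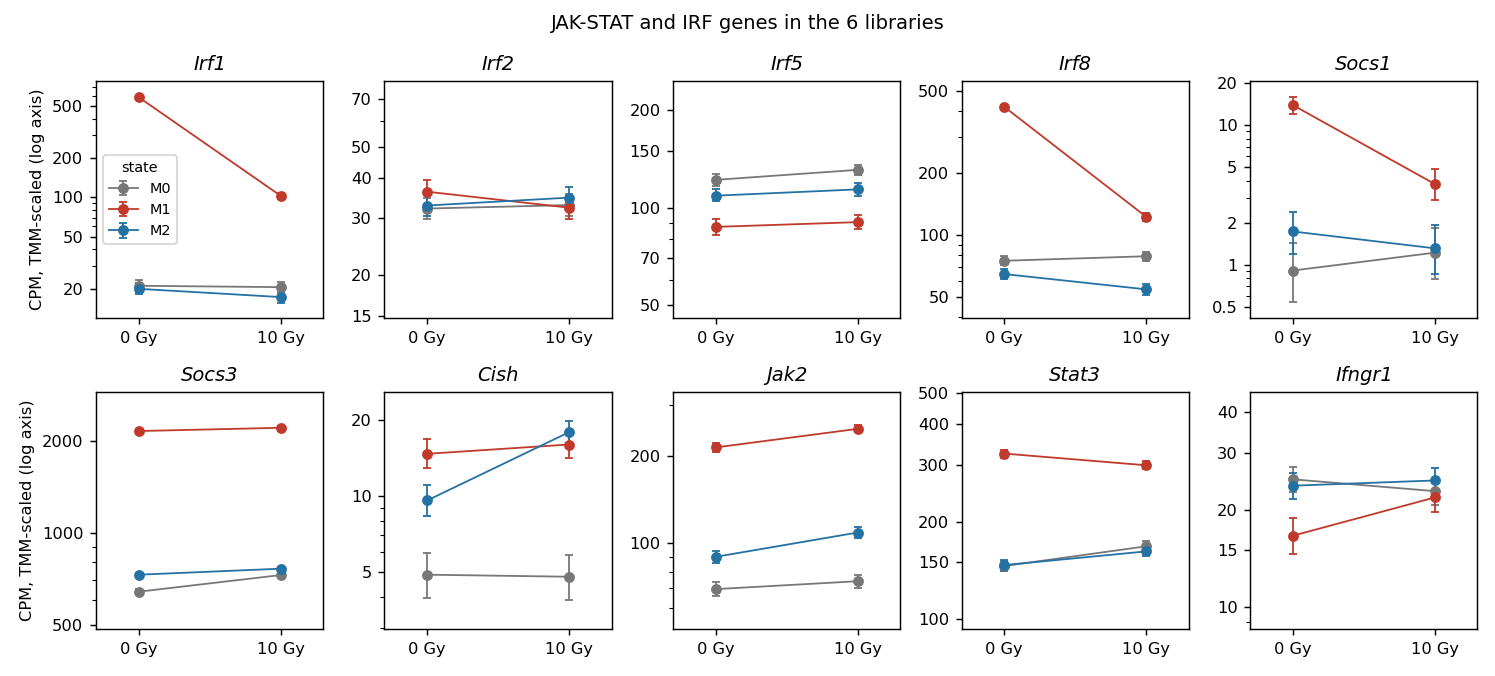
Level of each gene in the 6 libraries, as TMM-scaled CPM on a log axis, at 0 Gy and 10 Gy, with 1 point per library and bars for the exact 95% counting interval; each panel has its own range. In M1 and RM1 (red), Irf1, Irf8 and Socs1 are lower at 10 Gy than at 0 Gy, with Irf1 at 103 against 584 CPM, while Socs3, Jak2 and Cish are high at both. In M2 and RM2 (blue), Cish is at 9.61 and 17.9 CPM.

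LPS plus IFN-γ without irradiation was examined first, as M1 against M0. Of the 10 genes, 7 were at least 2-fold higher in M1 and 0 were at least 2-fold lower. Of 11778 genes counted at least 10 times in M1 or M0, 9.37% were higher and 13.3% lower, 22.7% together. The median log2 fold change was 1.59 over the 10 genes and -0.03 over all genes. The 10 genes and the lists below were chosen with earlier results of these data known, so the contrast with all genes is a description and not a test. Intervals after a log2 fold change are exact Clopper-Pearson 95% intervals, they cover counting error only, and they compare 2 libraries and not 2 conditions.

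At the receptor, Ifngr1 (chromosome 10 of GRCm38, 19591958 to 19610225) encodes the ligand-binding chain for IFN-γ. It had 24.8 CPM in M0 and 22.8 in RM0, 16.6 in M1 against 21.8 in RM1, and 23.7 in M2 against 24.6 in RM2. M1 was the lowest library, at a log2 fold change of -0.57 against M0 (-0.80 to -0.35), while RM1 lay within the counting interval of RM0 at -0.06 (-0.27 to 0.14). Its partner Ifngr2 had a log2 fold change of 0.40 in M1 against M0 (0.31 to 0.50). Ifng itself had 0 counts in 5 libraries and 1 count in RM2, and a count of 0 allows up to 3.

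Jak2 (chromosome 19, 29251803 to 29313080), which encodes the kinase bound to IFNGR2, had 69.6 CPM in M0 and 74.1 in RM0, 214 in M1 against 248 in RM1, and 89.9 in M2 against 109 in RM2. The M1 and RM1 libraries stood above the other 4. M1 was 3.07-fold above M0, at a log2 fold change of 1.62 (1.53 to 1.71). RM1 was 3.35-fold above RM0, at 1.74 (1.66 to 1.83).

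Stat3 (chromosome 11, 100886810 to 100939511), which encodes the STAT of the IL-6 and IL-10 receptors, had 146 CPM in M0 and 168 in RM0, 325 in M1 against 299 in RM1, and 147 in M2 against 162 in RM2. The M1 and RM1 libraries were again the highest, and M2 and M0 lay within their counting intervals. M1 was 2.22-fold above M0 at 1.15 (1.09 to 1.22), and RM1 was 1.78-fold above RM0 at 0.83 (0.77 to 0.90), which is under the 2-fold threshold. With scaling by library totals alone, M1 against M0 was 0.71 and under the threshold too. Over all annotated exons, Stat3 shares 72 bases with Stat5a on the opposite strand. The annotated Stat3 gene extends to 100885098, beyond the listed coordinates, and whether the shared bases lie inside them was not examined. Whether strand was used in counting is not given in the sources used here.

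Among the IRFs, Irf1 (chromosome 11, 53770014 to 53778374), an activator of interferon-induced genes, had 21.1 CPM in M0 and 20.6 in RM0, 584 in M1 against 103 in RM1, and 20.0 in M2 against 17.3 in RM2. It had the widest range of the 10 genes, 33.8-fold from RM2 to M1. M1 was 27.5-fold above M0, at a log2 fold change of 4.78 (4.65 to 4.93), and RM1 was 4.95-fold above RM0, at 2.31 (2.16 to 2.47). M0, RM0, M2 and RM2 each lay within the counting interval of the next in that order, but RM2 lay below RM0 at -0.25 (-0.47 to -0.04). Irf1 shares 135 exonic bases with the antisense gene Gm17334, which was not counted in the tables.

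Irf8 (chromosome 8, 120736376 to 120756692), a factor of the monocyte and dendritic cell lineages that also partners IRF1, had 75.3 CPM in M0 and 79.2 in RM0, 421 in M1 against 123 in RM1, and 64.9 in M2 against 54.7 in RM2. M1 was 5.59-fold above M0 at 2.48 (2.40 to 2.57). RM1 was 1.55-fold above RM0 at 0.64 (0.54 to 0.73), and was not called at 2-fold. RM2 was the lowest library.

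Irf5 (chromosome 6, 29526625 to 29537320), a factor used by Toll-like receptors, had 122 CPM in M0 and 131 in RM0, 87.3 in M1 against 90.3 in RM1, and 109 in M2 against 114 in RM2. M1 and RM1 were the 2 lowest libraries and lay within their counting intervals, at log2 fold changes of -0.48 (-0.58 to -0.38) against M0 and -0.54 (-0.63 to -0.45) against RM0. Over all annotated exons, Irf5 shares 411 bases with Tnpo3 on the opposite strand, whose counts were 1386 in M1 and 1666 in M0. The annotated Irf5 gene extends to 29541871, beyond the listed coordinates, and whether the shared bases lie inside them was not examined.

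Irf2 (chromosome 8, 46739745 to 46847458), which opposes IRF1 at shared sites, was the flattest of the 10 genes, with 32.2 to 36.3 CPM over the 6 libraries, a range of 1.13-fold. Every pair of neighbours in its order lay within the counting interval. M1 lay 0.17 above M0 on the log2 scale (0.00 to 0.34), but at -0.27 with scaling by library totals, which moved the median of all genes to -0.46.

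Socs1 (chromosome 16, 10783809 to 10785536), an inhibitor of JAK kinases at the IFN-γ receptor, had 18 counts in M0 and 24 in RM0, 205 in M1 against 63 in RM1, and 35 in M2 against 26 in RM2. It was the least counted of the 10 genes and its intervals were the widest. M1 was 13.8-fold above M0, at a log2 fold change of 3.78 (3.24 to 4.72), and RM1 was 2.92-fold above RM0, at 1.54 (0.93 to 2.37). The M2, RM2, RM0 and M0 libraries, in that order, each lay within the counting interval of the next.

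Socs3 (chromosome 11, 117966087 to 117969366), an inhibitor of gp130 receptors, had 641 CPM in M0 and 727 in RM0, 2161 in M1 against 2215 in RM1, and 729 in M2 against 763 in RM2. M1 was 3.37-fold above M0 at 1.75 (1.72 to 1.78), and RM1 was 3.05-fold above RM0 at 1.61 (1.58 to 1.64). The highest of the other 4 libraries was RM2.

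Cish (chromosome 9, 107296689 to 107301961), an inhibitor induced through STAT5 and STAT6, had 97 counts in M0 and 94 in RM0, 218 in M1 against 267 in RM1, and 195 in M2 against 356 in RM2. Both the LPS plus IFN-γ and the IL-4 libraries stood above M0 and RM0, which lay within their counting intervals. M1 was 2.97-fold above M0 at 1.57 (1.24 to 1.95), and RM1 was 3.29-fold above RM0 at 1.72 (1.39 to 2.09). Cish overlaps the antisense genes Gm17040 and Gm17041, which are not among the genes counted in the tables.

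After irradiation 5 of the 10 genes were at least 2-fold higher in RM1 than in RM0, and 0 were lower, where 6.16% of 11713 genes were higher and 7.87% lower, 14.0% together. The 5 genes were Irf1, Socs1, Socs3, Cish and Jak2. The M1 against M0 and RM1 against RM0 comparisons share no library.

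For an effect common to both pairs, edgeR's quasi-likelihood test was run over the 6 libraries together, in which the irradiated and non-irradiated pairs stand in for replicates and 1 effect is assumed in both. With Benjamini-Hochberg adjustment over 11574 genes, 7 members rose with LPS plus IFN-γ and 1 fell, where 23.3% of the genes tested rose and 24.3% fell, 47.6% together. Jak2 rose by a log2 fold change of 1.68 (SE 0.12, adjusted p = 3.40e-06 by the quasi-likelihood test) and Socs3 by 1.68 (SE 0.15, adjusted p = 1.16e-05). Stat3 rose by 1.00 (SE 0.13) and Cish by 1.66 (SE 0.23), with adjusted p = 1.53e-04 and 2.59e-04 in the same edgeR test. The standard errors of the other 3 genes that rose were larger, at 0.48 for Irf1 (log2 3.70, adjusted p = 1.60e-04 by edgeR), 0.45 for Socs1 (log2 2.87, adjusted p = 4.92e-04) and 0.33 for Irf8 (log2 1.63, adjusted p = 0.00246). Irf5 was the member that fell, by 0.51 on the log2 scale (SE 0.12, adjusted p = 0.00453 by edgeR), and was lower in both pairs. Ifngr1 did not pass, with a log2 fold change of -0.31 (SE 0.15, adjusted p = 0.116 by edgeR), nor did Irf2.

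**Figure D2:**
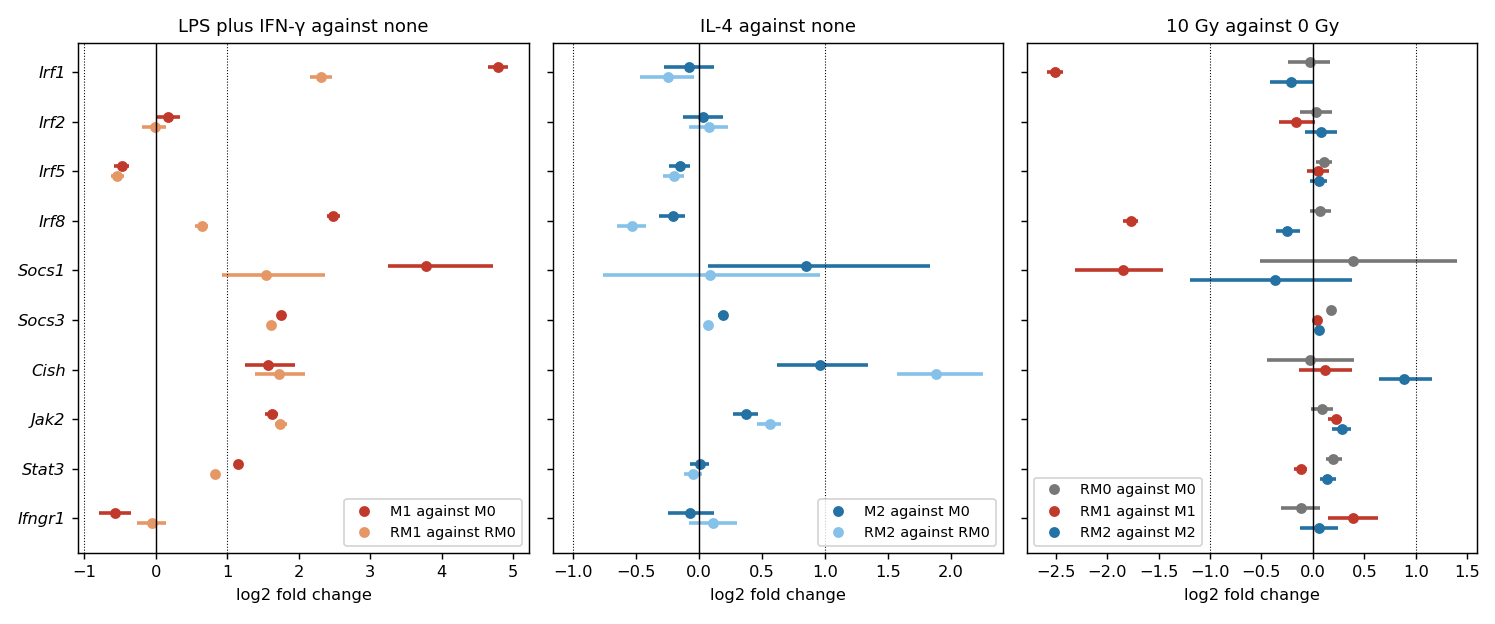
Log2 fold changes of the 10 genes between pairs of libraries, with lines for the exact 95% counting interval and dotted lines at 2-fold. The left panel shows LPS plus IFN-γ against none, where Irf1 is at 4.78 without and 2.31 with irradiation; the middle panel shows IL-4 against none, where Cish alone reaches 2-fold, in RM2 against RM0; the right panel shows 10 Gy against 0 Gy, where the points beyond 2-fold are Irf1, Irf8 and Socs1 in M1 cells.

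Irradiation of M1 cells was then examined as RM1 against M1, which shares the M1 library with M1 against M0. Of the 10 genes, 3 were at least 2-fold lower in RM1 and 0 were at least 2-fold higher, where 2.25% of 11443 genes were lower and 3.08% higher, 5.34% together. Irf1 was 5.68-fold lower, at a log2 fold change of -2.51 (-2.58 to -2.43). Socs1 was 3.60-fold lower, at -1.85 (-2.31 to -1.46), and Irf8 was 3.42-fold lower, at -1.77 (-1.85 to -1.70). With TMM scaling, the other genes raised by LPS plus IFN-γ stayed within 1.16-fold of M1, with Socs3 at 0.04 (0.01 to 0.06), Cish at 0.12 (-0.14 to 0.38), Jak2 at 0.22 (0.15 to 0.28) and Stat3 at -0.12 (-0.18 to -0.06). Ifngr1 was 1.31-fold higher, at 0.39 (0.15 to 0.63). Library totals put Socs3 at 0.18, Cish at 0.26, Jak2 at 0.36 and Stat3 at 0.02. Removal of a GC trend put them at 0.25, 0.21, 0.06 and -0.04.

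The same contrast in the other states gave small values. In RM0 against M0, 0 of 10 genes reached 2-fold, where 1.54% of 11688 genes did, 0.719% higher and 0.821% lower. The log2 fold changes ran from -0.12 for Ifngr1 to 0.39 for Socs1, with Irf1 at -0.03 (-0.24 to 0.17) and Irf8 at 0.07 (-0.03 to 0.18). In RM2 against M2, 0 of 10 reached 2-fold, where 1.97% of 11801 did, 1.03% higher and 0.932% lower. Cish was the highest there, at 0.89 (0.64 to 1.16), and Socs1 the lowest, at -0.37 (-1.19 to 0.38). Irf1 was at -0.21 (-0.42 to 0.00) and Irf8 at -0.25 (-0.36 to -0.13) in that pair. The counting intervals of Irf1 and Irf8 in M1 cells do not meet those in the other 2 states, but with 2 libraries per state the difference between states could not be tested against a spread between cultures.

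The same fit, with polarization as a term, also gave a test of irradiation over the 3 states. By edgeR's quasi-likelihood test, 0 of 10 members passed after Benjamini-Hochberg adjustment, where 0.475% of 11574 genes did, 0.346% higher and 0.130% lower, and 3 members had an unadjusted p under 0.05. These were Irf1 at a log2 fold change of -0.99 (SE 0.38, adjusted p = 0.277), Socs1 at -0.93 (SE 0.37, adjusted p = 0.286) and Irf8 at -0.65 (SE 0.27, adjusted p = 0.304) in the edgeR test. DESeq2's Wald test called 0 members as well. The outcome depended on which library was left out. Each such fit has 1 residual degree of freedom. With 1 library of a state left out, the other is fitted by a term of its own, and the irradiation effect rests on the pairs of the other states. Leaving out either library of a state, or both, is therefore not a separate check. Without M0 or without RM0, Irf1 was at a log2 fold change of -1.47, Socs1 at -1.32 and Irf8 at -1.03. Without M2 or without RM2, Irf1 was at -1.34 and Irf8 at -0.86. Without M1 or without RM1, Irf1 was at -0.12 and Cish at 0.56. Without both M0 and RM0 none of the 10 passed, with Irf1 at -1.47 (adjusted p = 0.0570 by edgeR). Over the 13 alternatives tried, the adjusted p of Irf1 ran from 2.49e-07 to 1.000 and that of Cish from 0.0103 to 1.000.

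The part of the M1 difference that was present after irradiation was computed as RM1 minus RM0 in percent of M1 minus M0, in TMM-scaled CPM, with a 95% interval for counting error. It was 14.6% for Irf1 (13.6 to 15.6), 12.7% for Irf8 (10.7 to 14.6) and 19.7% for Socs1 (11.1 to 28.4). It was 73.5% for Stat3 (66.3 to 80.6), 97.9% for Socs3 (95.5 to 100), 114% for Cish (80.4 to 147) and 121% for Jak2 (112 to 130). Scaling by library totals gave 15.5%, 10.0% and 20.3% for Irf1, Irf8 and Socs1 and 87.0% to 148% for the other 4.

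Other pathway genes that were at least 1.5-fold higher in M1 than in M0 differed widely by the same measure. Of the STATs, Stat2, which carries the type I interferon signal, kept 81.9% (76.6 to 87.1) and Stat5a 61.8% (45.4 to 78.2). Of the IRFs, Irf7 kept 58.3% (57.4 to 59.1) and Irf9, the DNA-binding partner of STAT2, 106% (81.5 to 130). Batf2, a partner of IRF1 in activated macrophages, kept 9.43% (6.48 to 12.4). Of the IFN-γ targets, the guanylate-binding protein genes Gbp2 and Gbp5 kept 10.1% (9.22 to 10.9) and 11.6% (10.3 to 12.9), Cxcl10 14.0% (11.3 to 16.6), Tap1, a peptide transporter for MHC class I, 33.3% (31.6 to 34.9), and Nos2, the inducible nitric oxide synthase, 61.8% (61.2 to 62.3). Icam1, an adhesion molecule, was at -21.0% (-28.3 to -13.6), being higher in M1 than in M0 but lower in RM1 than in RM0. Scaling by library totals moved 2 of these genes by over 1.5 times, Irf9 to 213% and Icam1 to -103%, and it moved the kinase gene Jak3 from 20.4% (4.59 to 36.2) to -1.12%.

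**Figure D3:**
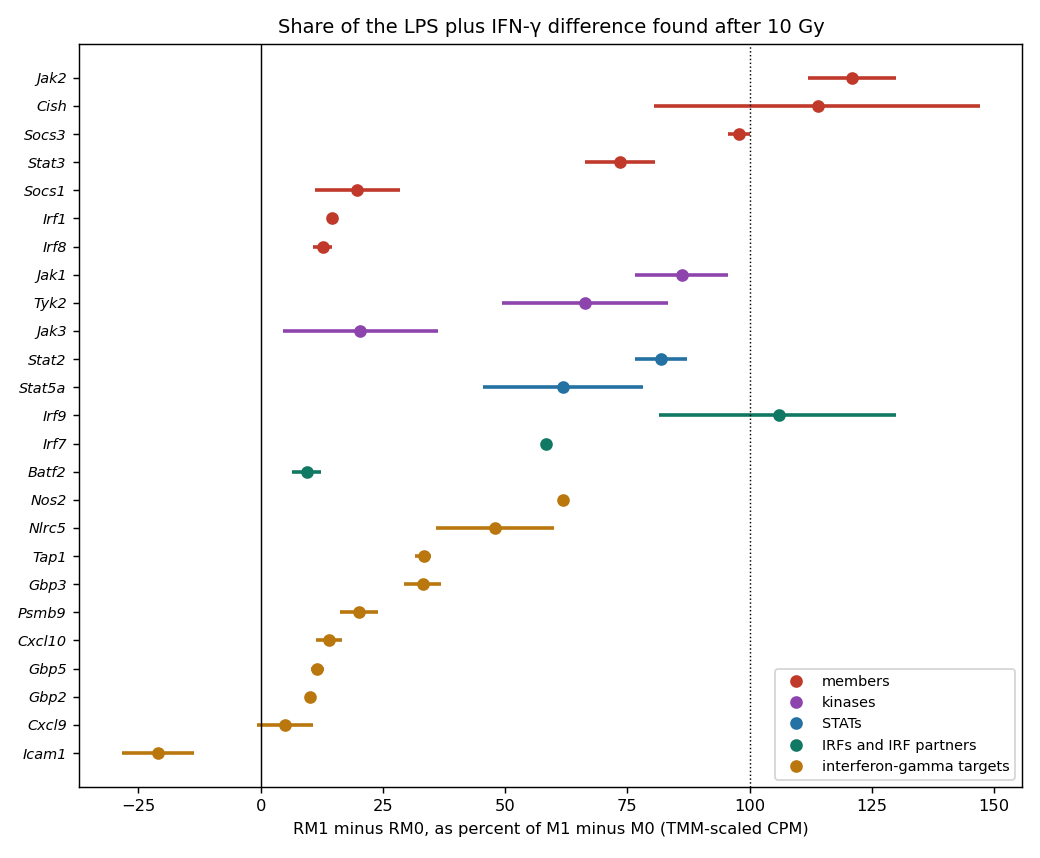
RM1 minus RM0 in percent of M1 minus M0, from TMM-scaled CPM, for members, kinases, STATs, IRFs and their partners, and IFN-γ targets that were at least 1.5-fold higher in M1 than in M0, with lines for the 95% counting interval. The dotted line at 100 marks an equal difference with and without irradiation; Irf1, Irf8 and Socs1 lie between 12.7% and 19.7%, near Gbp2, Gbp5 and Batf2, and Jak2, Cish and Socs3 lie at 97.9% to 121%.

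The rest of the pathway was described by 71 genes in 6 lists, of which 58 had at least 10 counts in M1 or M0. In M1 against M0, 14 were called higher and 0 lower, with a median log2 fold change of 0.39, where 9.37% of all counted genes were higher and 13.3% lower. In RM1 against RM0 the same counts were 14 and 0 of 57, with a median of 0.39, where 6.16% of all counted genes were higher and 7.87% lower. In the edgeR test of both pairs 29 of 57 rose and 7 fell, where 23.3% of all genes tested rose and 24.3% fell. The 12 listed IFN-γ targets had 9 called higher and 0 lower among 11 counted, with a median of 3.85 that includes Cxcl9, at 0 counts in M0 and 54 in M1, led by Gbp5 at 7.90 (7.36 to 8.98) and Gbp2 at 6.52 (6.25 to 6.88). Of the STATs, Stat2 was called higher at 2.08 (1.99 to 2.17) and Stat5a at 1.10 (0.94 to 1.27). Of 8 counted ligands 3 were called higher, Il6 at 2.61 (2.31 to 2.97), Csf2 at 1.84 (1.16 to 2.82) and Csf1 at 1.68 (1.23 to 2.25). Of 3 kinases 1 was called higher, Jak3 at 1.03 (0.85 to 1.22), of 9 counted IRFs and partners 2, Batf2 at 4.89 (4.42 to 5.66) and Irf7 at 3.67 (3.63 to 3.71), and of 17 counted receptors 3. These were Il13ra1 at 1.84 (1.74 to 1.96) and Il4ra at 1.83 (1.70 to 1.96), chains of the IL-4 receptors, and Il6st, which encodes gp130, at 1.08 (0.96 to 1.20). Of 16 inhibitors and phosphatases 2 were called higher, Ptpn2, a phosphatase acting on JAK1, at 2.15 (2.02 to 2.28), and Socs2 at 1.18 (0.28 to 2.40).

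In RM1 against M1, 7 of the 11 counted IFN-γ targets were called lower and 0 higher, with a median of -1.49 against -0.01 over all genes, of which 2.25% were lower and 3.08% higher. Cxcl9, with 54 counts in M1 and 3 in RM1, was at -3.71 (-6.67 to -2.72), Gbp2 was at -3.22 (-3.34 to -3.12), Gbp5 at -3.07 (-3.23 to -2.92) and Cxcl10 at -2.57 (-2.78 to -2.37). Of the other 57 counted pathway genes, 1 was called lower, Batf2 at -3.14 (-3.55 to -2.82), and 3 were called higher, Lif, Csf2 and Socs2, with a median of -0.03. The kinases, STATs and receptors had 0 called in either direction.

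**Figure D4:**
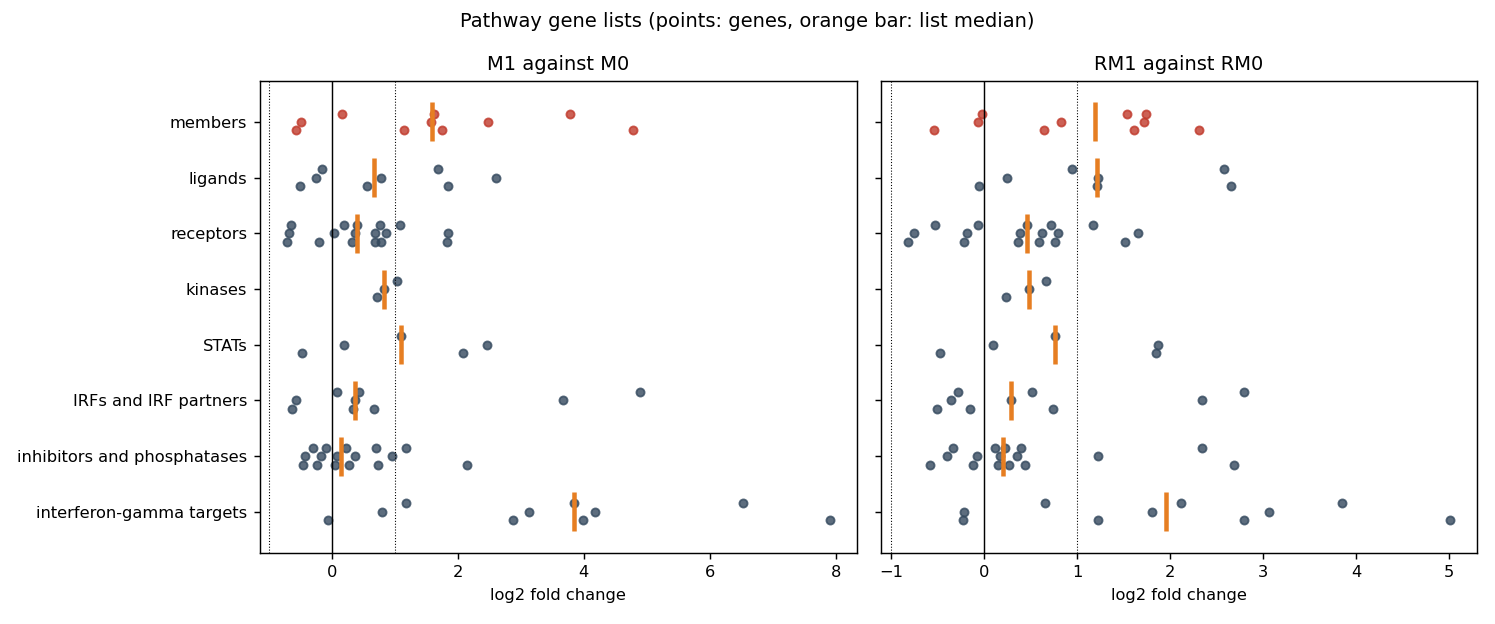
Log2 fold change by list of each gene that reached 10 counts in either library, in M1 against M0 (left) and RM1 against RM0 (right), with the list median as an orange bar and dotted lines at 2-fold; Cxcl9, with 0 counts in M0, is not drawn but enters the left median. The median of the IFN-γ targets is 3.85 on the left and 1.96 on the right, and that of the members, in red, 1.59 and 1.19.

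IL-4 gave smaller differences. In M2 against M0, 0 of 10 genes reached 2-fold, where 1.44% of 11762 genes did, 0.995% higher and 0.442% lower. Cish was the highest, 1.94-fold above M0 at a log2 fold change of 0.96 (0.62 to 1.34), followed by Socs1 at 0.85 (0.07 to 1.83) and Jak2 at 0.37 (0.27 to 0.47). Irf8 was the lowest, at -0.21 (-0.32 to -0.11). The value for Cish lies just under the threshold, and library totals or removal of a GC trend put it at or above 2-fold. In RM2 against RM0, 1 of 10 was called higher and 0 lower, where 1.66% of 11748 genes were higher and 0.953% lower, 2.61% together. This was Cish, 3.68-fold above RM0 at 1.88 (1.57 to 2.25), while Jak2 was at 0.56 (0.46 to 0.65) and Irf8 at -0.53 (-0.65 to -0.42).

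In the test of an IL-4 effect common to both pairs, 1 of 10 members passed, where 0.190% of 11574 genes did, 0.156% higher and 0.0346% lower. Cish rose by a log2 fold change of 1.47 (SE 0.23, adjusted p = 0.0372 by edgeR's quasi-likelihood test) and was higher in both pairs. The call was lost with library totals (1.52, adjusted p = 0.114 by edgeR), without RM0 (1.20, adjusted p = 0.0883) and without RM2 (1.02, adjusted p = 0.757), and held without M0 or M2, with a range of 4.50e-18 to 0.757 over the 10 alternatives. Jak2 was at 0.46 (SE 0.12, adjusted p = 0.264 by edgeR). Irf8 was at -0.37 without M1 or without RM1, and at -0.88 without M0. In the fit without M0, the unpolarized level rests on RM0 and on an irradiation effect from the M1 and M2 pairs. The -0.88 is therefore not a separate check of IL-4, and it lies outside the values of the IL-4 pairs, -0.21 in M2 against M0 and -0.53 in RM2 against RM0. Over the 10 alternatives, by edgeR or DESeq2, the adjusted p ran from 1.68e-04 to 1.000 for Jak2 and from 0.00528 to 1.000 for Irf8. Arg1, a known STAT6 target of IL-4, had 0 counts in M0, 31 in M2, 2 in RM0 and 89 in RM2. RM2 was the highest library for Arg1 as for Cish, but for Cish RM2 and RM1 lay within their counting interval. Of 5 counted IL-4 and STAT6 targets in M2 against M0, Arg1 was called higher and 4 were not called, where 0.995% of all counted genes were higher and 0.442% lower. Of these, Ccl22 was at -0.41 (-0.57 to -0.25) and Mrc1 at -0.60 (-2.51 to 0.83), while Klf4 was at 0.11 (-0.05 to 0.27) and Flt1 at 0.31 (0.14 to 0.49).

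The genes with the most similar pattern to a member over the 6 libraries were found from the root mean square difference of centred log2 profiles, among genes whose counts averaged 100 or more. For Irf1 these were Il27, Batf2 and Ifit2, at 0.26, 0.28 and 0.33. Il27, with 1052 counts in M1 and 350 in RM1, had 65 to 84 in the other 4 libraries. For Irf8 they were Irgm1 at 0.19 and H2-T23 and Psmb8, both at 0.21. For Socs3 they were Nfkbia at 0.07 and Pvrl3 and Dcbld2 at 0.08, and for Jak2 Tiparp, Kitl and Dusp10 at 0.07 to 0.11. For Stat3 they were Mrpl45, Pcnx and Cyb5r4 at 0.02 to 0.05, and for Cish Cd36, Flrt2 and Gm6793 at 0.25 to 0.30. Cd36 had 6717 counts in M0 and 8825 in RM0, 12800 in M1 against 17348 in RM1, and 11165 in M2 against 19929 in RM2. These are counts before scaling. With TMM factors of 0.8836 for RM1 and 1.093 for RM2, RM1 and not RM2 was its highest library in CPM. Among the members themselves Socs3 and Jak2 were 0.18 apart and Irf8 and Socs1 0.48 apart.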

How the data were processed

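RNA from RAW264.7 cells was measured in 6 libraries, 1 per condition, grouped by the sample titles. The submitters' processing notes name Trimmomatic 0.36, HISAT2 2.2.1 and HTSeq 0.11.3 with mm10. The authors deposited raw HTSeq counts per RefSeq gene, without normalization, for 24062 genes, of which 8137 had 0 counts in all libraries and 27 symbols had been turned into dates. Annotation was from GENCODE M21 and RefSeq on GRCm38, and promoter windows were from RefSeq (GRCm38.p6), found for all 10 members.

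Counts were scaled by TMM in edgeR 4.0.16 under R 4.3.3 with a prior count of 2 for log2 values. A gene was called if it differed 2-fold and reached 10 counts in either library. Clopper-Pearson intervals at 95%, the normal approximation used for the percent of the M1 difference, and a floor of 3 counts cover counting error only. Effects shared by states were tested with edgeR's quasi-likelihood test, with polarization and irradiation as additive terms, over genes that reached 10 counts in 3 or more libraries and at an adjusted p of 0.05. The fit has 2 residual degrees of freedom. No 100-base window of a member transcript occurs in another gene's transcripts. The named genes are the members, at most 4 called genes per list and direction, partners of a member, the 3 closest profiles and some uncalled targets of IFN-γ and IL-4. Values of 1 pathway gene are not reported here. Members and lists were chosen with earlier results of these data known. Alternatives were DESeq2 1.42.0, library totals, a prior count of 0.25, no filter, a 1.5-fold threshold, no polarization term and each library or state left out. Removal of a GC trend was added after seeing the data. All other steps were run in Python 3.11.15 (matplotlib 3.10.9, statsmodels 0.14.6, scipy 1.17.1, pandas 2.3.3 and numpy 2.4.6).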

Additional observations from a re-analysis of the deposited data

Results flagged for a closer look

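Stat3 was set apart because the counting intervals of its change after irradiation lay on opposite sides of 0 in 2 states. The log2 fold change was 0.20 in RM0 against M0 (0.13 to 0.28) and -0.12 in RM1 against M1 (-0.18 to -0.06), a difference of 0.32. The difference was not tested, since each state has 1 library per dose. Scaling by library totals put the RM1 value at 0.02 and removal of a GC trend at -0.04, so its direction depended on the scaling.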

How the results depend on the processing

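The members called in M1 against M0, RM0 against M0, RM1 against M1, RM1 against RM0 and RM2 against RM0 were the same in number within 1.5 times under all 6 alternatives, and in RM1 against M1 they were Irf1, Irf8 and Socs1 each time. Library totals changed the split in M1 against M0 from 7 higher and 0 lower to 6 and 1, with Stat3 at 0.71 and Ifngr1 at -1.01. Over all genes they changed it from 1104 and 1569 to 601 and 2984, in RM1 against RM0 from 722 and 922 to 498 and 1493, in RM1 against M1 from 353 and 258 to 482 and 202, and in RM2 against M2 from 122 and 110 to 98 and 149. Library totals moved the median of all genes to -0.46, -0.25 and 0.13 in the first 3 of these. In M2 against M0 the members called went from 0 to 1 with library totals, 1 with the GC trend removed (both Cish) and 2 at 1.5-fold, and in RM2 against M2 from 0 to 1 at 1.5-fold.

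Calls of the shared irradiation test over all genes were 55, and 3 with library totals, 156 with no filter, 115 with DESeq2 and 0 with no polarization term (edgeR; 0 members as well). With libraries or states left out they ran from 77 to 660, and members from 0 to 3. Calls of the shared IL-4 test were 22, and 3 with library totals, 56 with no filter and 41 with DESeq2, with library totals giving 0 members. With libraries or states left out they ran from 19 to 1389, and members from 0 to 3. The cause was not tested. The LPS plus IFN-γ test called 8 or 9 members throughout.

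No paired analysis was possible because the labels carry no replicate numbers, and the comparison within each state is made by the polarization term of the shared irradiation test. With 18 counts in M0, Socs1 was limited by depth. Irradiation cannot be told apart from time in culture, and every 2-library value holds for these libraries alone.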

Other observations

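Ligands of the pathway were called higher in RM1 than in M1 for 2 of 7 counted genes and lower for 0, where 3.08% of all counted genes were higher and 2.25% lower. Lif, a gp130 cytokine, went from 2992 counts in M1 to 7073 in RM1, or 1.07 (1.01 to 1.13) as log2 fold change, and Csf2, which encodes GM-CSF, from 52 to 126, or 1.08 (0.63 to 1.60). Lif also passed the shared irradiation test, at 0.88 (SE 0.11, adjusted p = 0.00785 by edgeR's quasi-likelihood test), and was higher after irradiation in 3 of 3 states. Its adjusted p ran from 9.82e-13 to 1.000 over the 13 alternatives, and the call was lost with library totals (0.0962) and with no polarization term. Of the inhibitors, Socs2 had 24 counts in M1 and 81 in RM1, at 1.52 (0.91 to 2.30).

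Of 10 tested IFN-γ targets, 2 fell in the shared irradiation test, where 0.130% of all genes tested fell, Gbp5 at -2.69 (SE 0.36, adjusted p = 0.0120) and Cxcl10 at -1.80 (SE 0.27, adjusted p = 0.0215), by edgeR. Gbp5 was at -0.28 without M1 (adjusted p = 0.868 by edgeR) or without RM1 (0.865), while Cxcl10 passed there at -1.09 and -1.08. Neither Gbp5 nor Cxcl10 was called with library totals (adjusted p = 0.123 and 0.117 by edgeR), with no polarization term or by DESeq2's Wald test (adjusted p = 0.712 and 0.0924), and over the 13 alternatives the adjusted p ran from 2.30e-19 to 1.000 for Gbp5 and from 2.57e-13 to 1.000 for Cxcl10. Ciita, the class II transactivator that IFN-γ induces in many macrophages, had at most 1 count in any library. Of the IRFs, Irf7 was at -1.17 (-1.23 to -1.11) in RM2 against RM0. The receptor gene Il7r was the 1 of 57 pathway genes that rose in the shared IL-4 test, where 0.156% of all genes tested did, at 1.11 (SE 0.16, adjusted p = 0.0208 by edgeR), a call lost with library totals (0.102), without RM0 (0.0883) or without RM2 (0.109), with a range of 1.00e-15 to 0.109 over 10 alternatives. Of the 12 listed IL-4 and STAT6 targets, 5 had at least 10 counts in M2 or M0, and Arg1 was the 1 called, while Chil3, Retnla and Fn1 had 0 counts in all 6 libraries. In M2 against M0, 0.995% of all counted genes were higher and 0.442% lower. In RM2 against M2, Arg1 was again the 1 called of 5 counted, with 89 and 31 counts, at 1.49 (0.95 to 2.19), where 1.03% of all counted genes were higher and 0.932% lower. In M1 against M0 the macrophage mannose receptor gene Mrc1, with only 50 and 10 counts, was at 2.51 (1.75 to 3.89). The chemokine gene Ccl22, with 118 and 767 counts, was at -2.26 (-2.57 to -2.00).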
